A study of Mus musculus with 12 samples.

Results

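The subject is a set of 10 genes that mark neurons of the deep cortical layers, the subplate or the subiculum: Cplx3, Foxp2, Col24a1, Rprm, Fezf2, Hs3st2, Tbr1, Nxph4, Tle4 and Bcl11b. They were matched by symbol to the Ensembl genes of the count files, 10 of 55487 genes in all. Several of them were selected on their measured rise in the knockout at postnatal day 14 (P14), so the P14 values of the set are given as a description without a test. The contrast at the day of birth (P0) was not used in the selection and was tested.

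The 12 libraries are RNA-seq of individual male mice, 3 in each of 4 groups, from crosses of a floxed allele of Auts2 exon 7 with Cre lines. At P0 the forebrain of Cmv-cre knockouts (strain label cmv-cre_auts2-ex7koko), whose driver is active throughout the body, was compared with that of BL6 wild-type littermates. At P14 the hippocampus of Nes-cre knockouts (nes-cre_auts2-ex7koko), whose driver is active in neural progenitors, was compared with that of mice labelled auts2-ex7-fl-het. These P14 controls carry the floxed allele too, and the labels do not say whether they carry Nes-cre. The P0 and P14 samples differ at once in age, tissue, Cre driver and type of control, and the parts of these in any difference between the ages cannot be told apart.

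Neurons of layers 5 and 6 and of the subplate are the first projection neurons born in the cortex, and they send axons to the thalamus, brainstem and spinal cord. Their identity is set by transcription factors that act on one another: Tbr1 promotes corticothalamic fate, while Fezf2 and Bcl11b promote subcerebral fate. The subplate persists after birth as a thin layer under the cortex, and several of its markers are also used by neurons of the subiculum, the region that borders the hippocampus.

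Total counts lay between 11247150 and 16796797 in the P0 libraries and between 16830720 and 23340621 in the P14 libraries. Auts2 itself, counted over the whole gene, was at 87.6, 72.4 and 70.7 CPM in the P14 knockouts and at 89.7, 91.6 and 103 CPM in their controls. The knockouts all lay below the controls, but the difference did not pass the test (log2 fold change -0.30, SE 0.09, edgeR quasi-likelihood adjusted p 0.111). At P0 the knockouts had 176, 194 and 172 CPM and the wild types 172, 146 and 167 CPM (log2 fold change 0.16, SE 0.08, edgeR quasi-likelihood adjusted p 0.362), with overlapping groups. The gene-level count includes the exons that remain, so it is no check of the exon deletion. CPM here are counts scaled to a common library size by the trimmed mean of M-values, and fold changes are knockout over control. The replicates are separate mice, and the p-values measure the spread between them.

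In the P14 hippocampus the largest ratios of the set were those of Cplx3, Col24a1 and Foxp2. Cplx3 encodes a complexin, a small protein that binds the SNARE complex and tunes vesicle release, and it is a classical subplate marker. It was at 11.1, 17.2 and 13.4 CPM in the 3 knockouts and at 2.87, 2.04 and 0.889 CPM in the 3 controls. The lowest knockout was well above the highest control, and the ratio of the group means was 7.19 (13.9 ± 3.08 against 1.93 ± 0.995 CPM, SD, n = 3; log2 fold change 2.85, SE 0.34).

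Hs3st2, a sulfotransferase that modifies heparan sulfate chains on the cell surface, was at 15.4, 18.4 and 17.6 CPM in the knockouts and at 5.42, 6.74 and 5.68 CPM in the controls. Each group was tight and they did not overlap (ratio of means 2.88, log2 fold change 1.53, SE 0.14). Col24a1, a fibrillar collagen gene, was at 6.04, 4.94 and 1.97 CPM in the knockouts and at 0.585, 0.627 and 1.28 CPM in the controls. Its groups did not overlap, but knockout replicate 3 came close to control replicate 3, and the log2 fold change of 2.37 had the widest error of the set (SE 0.45). Nxph4, a secreted ligand of the neurexophilin family, was at 1.40, 2.12 and 3.59 CPM in the knockouts and at 2.29, 1.36 and 1.58 CPM in the controls. These groups overlapped, and the log2 fold change of 0.42 (SE 0.34) fell to 0.02 without knockout replicate 3 and was 0.70 without knockout replicate 1, 0.67 without control replicate 1 and 0.27 without control replicate 2.

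Among the transcription factors, Foxp2 had the largest ratio. This forkhead factor marks layer 6 neurons and is also used by striatal and thalamic neurons. It was at 7.07, 8.11 and 6.57 CPM in the P14 knockouts and at 1.75, 1.72 and 1.04 CPM in the controls, a ratio of means of 4.82 (log2 fold change 2.27, SE 0.22). The 3 knockout values were all far above the 3 control values, on a low level in both groups.

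Fezf2, the zinc finger factor that specifies subcerebral neurons, was at 42.7, 34.4 and 39.4 CPM in the P14 knockouts and at 27.5, 29.8 and 25.7 CPM in the controls. Tbr1, the T-box factor of layer 6, was at 45.6, 45.3 and 56.4 CPM in the knockouts and at 35.6, 36.3 and 39.3 CPM in the controls. Neither gene overlapped between the groups, and the differences were moderate (log2 fold change 0.49, SE 0.10, for Fezf2 and 0.40, SE 0.10, for Tbr1). Tle4, a Groucho co-repressor that marks corticothalamic neurons, was at 62.1, 62.2 and 62.5 CPM in the knockouts and at 56.9, 60.7 and 56.8 CPM in the controls. Its groups were apart by a small step only (log2 fold change 0.10, SE 0.07).

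Bcl11b, also called Ctip2, is a marker of layer 5 that the hippocampus itself uses in CA1 and dentate granule neurons. It was the most abundant member in CPM, at 157, 158 and 167 CPM in the P14 knockouts and at 146, 159 and 158 CPM in the controls. These groups overlapped (log2 fold change 0.06, SE 0.07). Rprm, the gene of the cell cycle arrest protein Reprimo and a marker of layer 6, was at 40.9, 42.1 and 37.3 CPM in the knockouts and at 19.6, 17.7 and 15.0 CPM in the controls. The lowest knockout had nearly double the highest control (log2 fold change 1.20, SE 0.10).

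**Figure D1:**
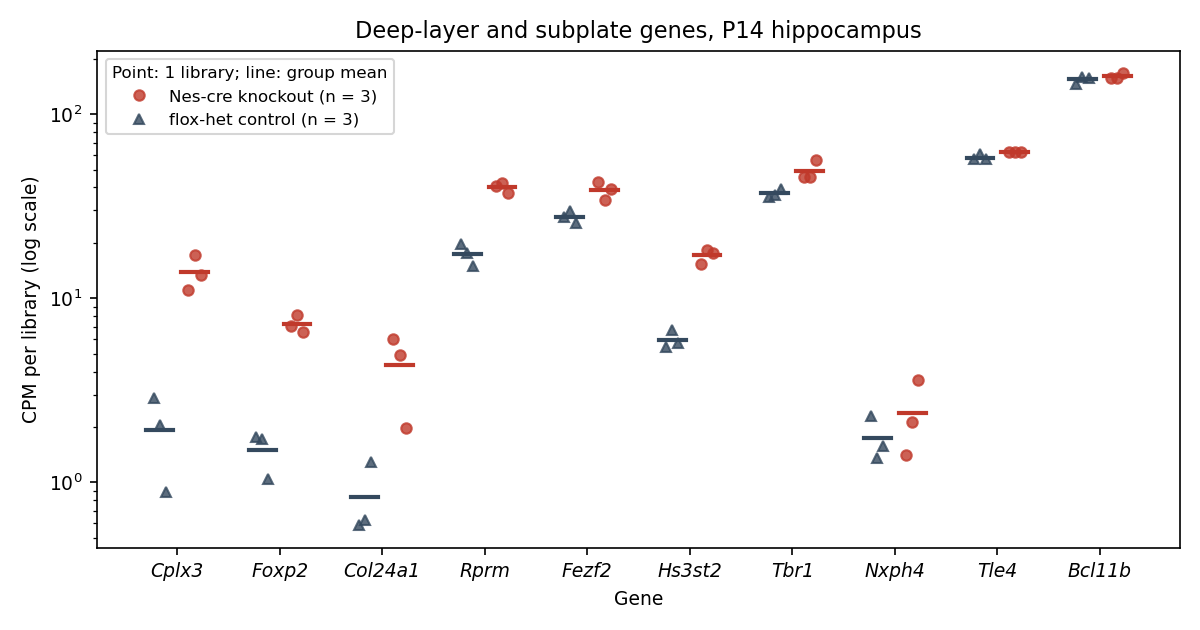
CPM of the 10 genes in the P14 hippocampus on a log axis, with circles for the 3 Nes-cre knockouts, triangles for the 3 flox-het controls and a line at each group mean. Cplx3, Foxp2, Col24a1, Rprm and Hs3st2 show a wide gap, Fezf2 and Tbr1 a narrow one, and Nxph4 and Bcl11b overlap.

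Every one of the 10 log2 fold changes was positive, with a median of 0.85 against -0.01 over all 17208 genes tested. In 8 of the 10 all knockouts exceeded all controls. Over all genes tested this held for 10.3%, but the members were chosen on this contrast and nothing is read from the difference. In absolute terms several members differed by like amounts in spite of unlike ratios. The knockout mean exceeded the control mean by 12 CPM for Cplx3, 12 CPM for Tbr1, 11.2 CPM for Fezf2 and 11.2 CPM for Hs3st2, while their ratios ran from 7.19 for Cplx3 to 1.32 for Tbr1. Rprm differed by 22.6 CPM, Bcl11b by 6.12 CPM, Foxp2 by 5.75 CPM, Tle4 by 4.10 CPM, Col24a1 by 3.49 CPM and Nxph4 by 0.63 CPM. CPM are not per length, so the amounts describe reads, not molecules. In bulk tissue, more cells of a type and more RNA per cell cannot be told apart.

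The members did not peak in 1 and the same P14 knockout library. Knockout replicate 2 was highest for Cplx3, Foxp2, Rprm and Hs3st2, replicate 3 for Tbr1, Nxph4, Tle4 and Bcl11b, and replicate 1 for Col24a1 and Fezf2. Leaving out 1 library at a time left the log2 fold change between 2.50 and 3.26 for Cplx3, between 2.06 and 2.40 for Foxp2 and between 1.10 and 1.30 for Rprm. For Fezf2 it lay between 0.41 and 0.57.

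The sequences at the starts of 5 members are shown, those with the largest P14 log2 fold changes among the 8 members that the promoter table holds, so that their makeup can be compared. Each is 300 bases of RefSeq sequence on GRCm38.p6, 250 before and 50 after the annotated start, on the strand of the gene, and capitals mark CG dinucleotides.
Cplx3, chr9:57606232-57606531, minus strand: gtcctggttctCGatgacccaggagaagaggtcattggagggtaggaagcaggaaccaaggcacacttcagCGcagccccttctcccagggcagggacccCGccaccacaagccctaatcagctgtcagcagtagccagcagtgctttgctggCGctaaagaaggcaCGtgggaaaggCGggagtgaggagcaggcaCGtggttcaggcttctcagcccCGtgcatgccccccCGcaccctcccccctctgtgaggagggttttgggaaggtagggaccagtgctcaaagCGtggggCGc
Hs3st2, chr7:121392046-121392345, plus strand: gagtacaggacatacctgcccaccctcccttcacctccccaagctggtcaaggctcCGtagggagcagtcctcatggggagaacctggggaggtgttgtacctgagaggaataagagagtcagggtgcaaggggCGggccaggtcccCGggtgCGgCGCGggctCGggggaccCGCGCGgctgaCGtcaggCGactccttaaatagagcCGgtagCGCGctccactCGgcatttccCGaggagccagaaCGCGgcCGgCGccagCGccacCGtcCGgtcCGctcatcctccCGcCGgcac
Col24a1, chr3:145292222-145292521, plus strand: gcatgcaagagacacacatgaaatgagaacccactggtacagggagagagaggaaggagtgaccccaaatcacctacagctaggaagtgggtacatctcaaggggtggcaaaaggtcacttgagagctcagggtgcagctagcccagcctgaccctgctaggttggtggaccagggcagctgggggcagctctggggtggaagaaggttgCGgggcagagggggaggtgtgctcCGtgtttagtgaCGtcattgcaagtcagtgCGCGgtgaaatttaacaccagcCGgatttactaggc
Rprm, chr2:54085503-54085802, minus strand: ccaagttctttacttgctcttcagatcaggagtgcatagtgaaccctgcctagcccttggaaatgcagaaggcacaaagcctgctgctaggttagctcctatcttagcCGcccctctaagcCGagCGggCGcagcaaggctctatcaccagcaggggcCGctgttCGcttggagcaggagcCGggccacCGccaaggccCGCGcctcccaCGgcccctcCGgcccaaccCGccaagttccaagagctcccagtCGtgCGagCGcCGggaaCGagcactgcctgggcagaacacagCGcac
Fezf2, chr14:12345816-12346115, minus strand: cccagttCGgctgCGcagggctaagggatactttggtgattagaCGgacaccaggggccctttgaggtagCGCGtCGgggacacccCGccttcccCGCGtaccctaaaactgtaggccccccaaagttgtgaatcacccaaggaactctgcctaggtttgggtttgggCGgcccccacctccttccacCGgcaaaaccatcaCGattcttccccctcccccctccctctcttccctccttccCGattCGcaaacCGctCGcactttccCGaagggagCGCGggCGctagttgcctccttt
The starts differ widely in CG content. Hs3st2 has 27 CG dinucleotides, Fezf2 20, Rprm 19, Cplx3 11 and Col24a1 6, against a median of 7 over the 32851 promoters of the table. The G and C share was 67.7% for Hs3st2, 63.3% for Rprm, 62.7% for Cplx3, 61.3% for Fezf2 and 56.3% for Col24a1, against a median of 52.7%. The table held 9 promoters of 8 members, with 2 for Tle4, and none for Foxp2 and Nxph4. Of those not shown, Tle4 had 73% and 65% G and C, and Tbr1 (46%) and Bcl11b (43%) lay below the median. The T-box core GGTGTGA was found on neither strand in any of the 9, and in 3.98% of all promoters. The E-box CAGATG was likewise in 0 of 9, and in 17.2% of all. TATAAA was in 1, that of Bcl11b, and in 13.6% of all. This match began at -5 from the annotated start and ran across it. Within the 250 bases before the start TATAAA was in 0 of 9, and in 12.4% of all. No motif searched was shared by the 5 genes, and these counts speak only of these letters in this window.

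Markers of other cell types moved in the same P14 libraries. Of 8 dentate granule neuron markers, 7 were called lower in the knockouts, and their summed level was 313, 276 and 322 CPM in the knockouts and 451, 487 and 450 CPM in the controls. The 10 striatal projection neuron markers summed to 218, 292 and 192 CPM in the knockouts and to 145, 184 and 174 CPM in the controls, and 9 of 10 had a positive fold change. Of these Drd1, a dopamine receptor gene, was called (5.15, 9.11 and 6.99 CPM against 2.34, 2.98 and 2.42 CPM, log2 fold change 1.46, edgeR quasi-likelihood adjusted p 0.00341). Foxp2 and Bcl11b are also expressed by striatal projection neurons, and the part of such cells in their P14 values was not tested.

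The 6 choroid plexus markers summed to 1410, 1872 and 1271 CPM in the knockouts and to 136, 896 and 2363 CPM in the controls, and none of them was called by edgeR or DESeq2 or had an unadjusted p under 0.05. In control replicate 3, where this sum was highest, Cplx3, Foxp2, Rprm, Fezf2 and Tle4 were at their lowest and Col24a1 and Tbr1 at their highest among the controls. Among 5 CA1 markers only Mpped1 was called, and it was higher (log2 fold change 0.48). Of 8 CA2 and CA3 markers 2 were called, both lower. Of 7 thalamus markers tested, 6 had a negative log2 fold change (median -0.28), and Ramp3 was called higher and Lef1 lower. The 8 thalamus markers summed to 108, 100 and 104 CPM in the knockouts and to 134, 114 and 116 CPM in the controls. No marker was at 0 in all libraries of a P14 group, and the part of these tissues in the members' values was not tested.

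Cplx3 is also expressed by neurogliaform interneurons, so the interneuron markers are given too. Lamp5, 1 of several markers used for those cells, was at 22.0, 25.0 and 24.5 CPM in the P14 knockouts. It was at 22.8, 22.8 and 18.1 CPM in the controls (log2 fold change 0.17, edgeR quasi-likelihood adjusted p 0.51). Of the 10 interneuron markers, Gad1 (log2 fold change -0.35) and Ndnf (-0.67) were called, both lower. Reln (-0.36, edgeR quasi-likelihood adjusted p 0.12) and Npy (0.20, adjusted p 0.36) were not called. None was called higher, and 1 of 5 with an unadjusted p under 0.05 was higher. DESeq2 called 4 of the 10. The part of interneurons in the P14 values of Cplx3 was not tested.

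**Figure D2:**
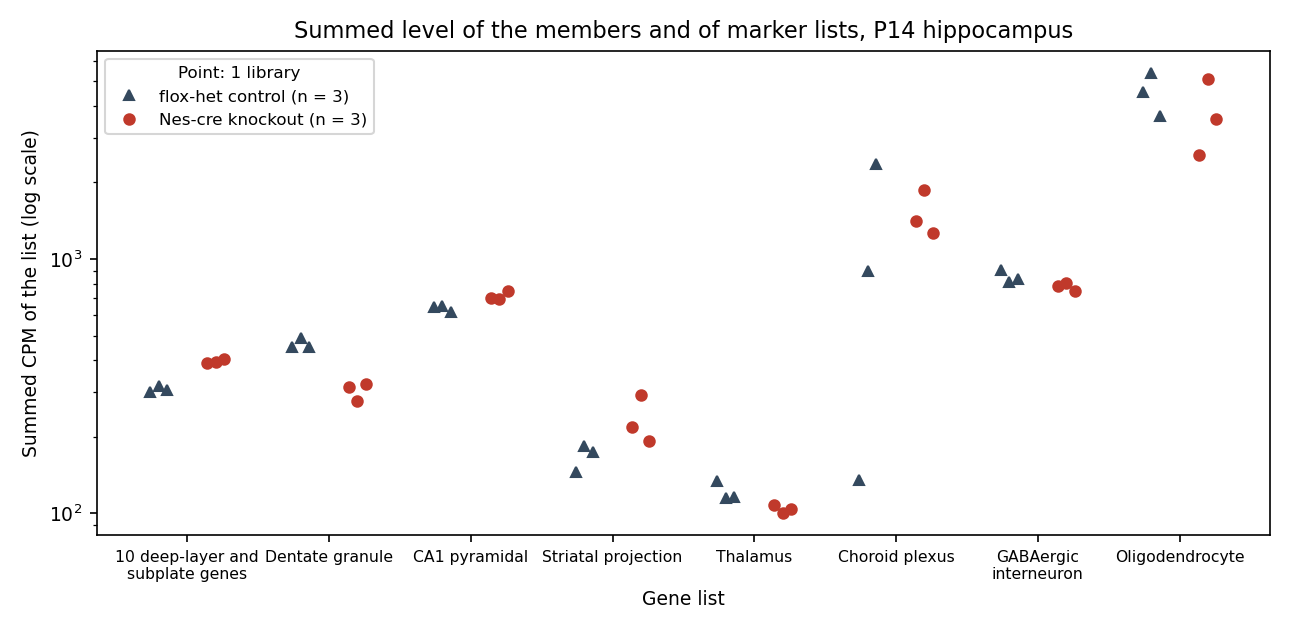
Summed CPM per library of the 10 genes and of 7 marker lists in the P14 hippocampus, on a log axis, with triangles for controls and circles for knockouts. The 10 genes sum to between 390 and 406 CPM in the knockouts and between 299 and 316 CPM in the controls, the dentate granule sum lies lower in every knockout, and the choroid plexus sum spreads from 136 to 2363 CPM among the controls.

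In the P0 forebrain the test applies. Of the 10 genes 1, Fezf2, passed at an adjusted p under 0.05, against 0.909% of the 16176 genes tested. Fezf2 was at 65.6, 66.0 and 68.6 CPM in the Cmv-cre knockouts and at 48.5, 46.6 and 54.3 CPM in the wild types. All knockouts lay above all wild types, and Fezf2 rose with a log2 fold change of 0.42 (SE 0.09, edgeR quasi-likelihood adjusted p 0.0427). The call was lost without knockout replicate 1 (adjusted p 0.138), knockout replicate 2 (0.145), wild-type replicate 1 (0.249) or wild-type replicate 2 (0.236), with log2 fold changes from 0.37 to 0.44 in these fits. It held without knockout replicate 3 (adjusted p 0.0133), the only other knockout, and without wild-type replicate 3 (0.028). The fits in which it was lost called 1, 15, 2 and 1 genes in all, in that order. The fits in which it held called 775 and 249.

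Foxp2 lay on the other side at P0. It was at 88.2, 81.5 and 95.4 CPM in the knockouts and at 102, 104 and 106 CPM in the wild types. All knockouts were below all wild types, by a log2 fold change of -0.23 (SE 0.08) that did not pass (unadjusted p 0.0119, edgeR quasi-likelihood adjusted p 0.177). Without knockout replicate 3, the highest of its group, the value was -0.29 with an adjusted p of 0.0297. Fezf2 and Foxp2 were the 2 members of 10 whose P0 groups did not overlap, while 21.6% of all genes tested had groups that did not overlap. They were also the 2 members with an unadjusted p under 0.05.

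The other transcription factors of the set had positive P0 values that did not pass. Bcl11b was at 265, 307 and 261 CPM in the knockouts and at 258, 204 and 264 CPM in the wild types (log2 fold change 0.20, SE 0.10, adjusted p 0.355). Tbr1 was at 136, 148 and 123 CPM in the knockouts and at 132, 101 and 125 CPM in the wild types (log2 fold change 0.18, SE 0.10, adjusted p 0.412). Wild-type replicate 2 was the low library for both genes. Tle4 was at 139, 133 and 115 CPM in the knockouts and at 123, 121 and 117 CPM in the wild types (log2 fold change 0.10, SE 0.08, adjusted p 0.604).

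Cplx3 and Col24a1, whose P14 ratios were the largest, were barely detected at P0. Cplx3 was at 1.70, 0.444 and 1.23 CPM in the P0 knockouts and at 1.44, 2.52 and 1.13 CPM in the wild types (log2 fold change -0.55, SE 0.44, adjusted p 0.583). Col24a1 was at 0.596, 0.976 and 1.42 CPM in the knockouts and at 1.26, 1.30 and 1.25 CPM in the wild types (log2 fold change -0.31, SE 0.37, adjusted p 0.729). Cplx3 had at most 29 counts and Col24a1 at most 22 in any P0 library.

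Hs3st2 was well measured at P0, at 15.9, 21.2 and 16 CPM in the knockouts and at 23.4, 18.8 and 19.4 CPM in the wild types (log2 fold change -0.21, SE 0.14, adjusted p 0.480). Rprm was at 113, 105 and 138 CPM in the knockouts and at 117, 114 and 113 CPM in the wild types (log2 fold change 0.06, SE 0.10, adjusted p 0.826). Its sign depends on knockout replicate 3, without which the value was -0.071. Nxph4 was at 11.2, 9.40 and 12.7 CPM in the knockouts and at 12.4, 13.7 and 10.8 CPM in the wild types (log2 fold change -0.14, SE 0.15, adjusted p 0.701). Over the set, 5 members had positive and 5 negative P0 values, with a median of -0.04.

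Marker lists moved in the P0 libraries too. The 5 forebrain identity genes, which include the factors Emx1 and Lhx2, summed to 359, 386 and 396 CPM in the knockouts and to 306, 302 and 319 CPM in the wild types, so every knockout lay above every wild type as for Fezf2. All 5 were positive (median log2 fold change 0.30), and Lhx2 was called (0.42, edgeR quasi-likelihood adjusted p 0.0368). The striatal projection neuron markers, whose cells also use Foxp2, summed to 349, 353 and 340 CPM in the knockouts and to 428, 374 and 380 CPM in the wild types. Of these 10, Tac1 was called and fell (-0.73, adjusted p 0.0197). The 5 astrocyte markers summed to 407, 400 and 407 CPM in the knockouts and to 603, 586 and 449 CPM in the wild types, with all 5 negative (median -0.51) and Aqp4 called. All 5 microglia markers were negative (median -0.31), with P2ry12 called. All 6 dentate granule markers tested were negative (median -0.48), with Calb1 called, and of 8 thalamus markers Prkcd was called lower. The choroid plexus sum was higher in every knockout (1053, 989 and 952 CPM against 861, 710 and 897.5 CPM in the wild types). So was the CA1 sum (733, 732 and 670 against 583.5, 533 and 633 CPM), though 3 of 5 CA1 genes were negative. The CA2 and CA3 sum and the oligodendrocyte sum were lower in every knockout. No marker of these cell types was called by edgeR. Calls made up 0.909% of all genes tested at P0. The part of a different make-up of the P0 samples in the values of Fezf2 and Foxp2 was not tested.

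**Figure D3:**
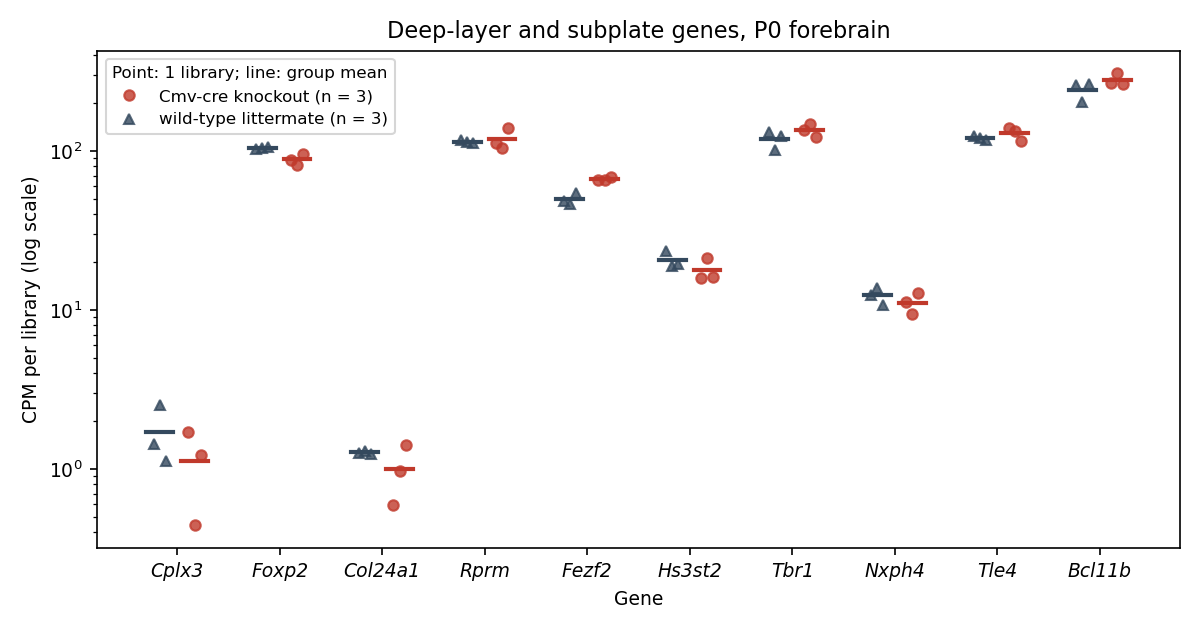
CPM of the 10 genes in the P0 forebrain on a log axis, with circles for the 3 Cmv-cre knockouts, triangles for the 3 wild-type littermates and a line at each group mean. Fezf2 is higher in all 3 knockouts and Foxp2 lower in all 3, and the other 8 overlap.

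Side by side, Fezf2 had nearly the same log2 fold change at both ages (0.42 at P0 and 0.49 at P14), as had Tle4 (0.10 and 0.10). Foxp2 changed sign, from -0.23 to 2.27. The P14 value exceeded the P0 value by 3.37 for Cplx3, 2.66 for Col24a1, 2.49 for Foxp2, 1.72 for Hs3st2 and 1.13 for Rprm, and by 0.54 or less for the other members, with Bcl11b at -0.16. These differences come from an interaction term over all 12 libraries. They contain the P14 contrast that chose the members and are given with no test.

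**Figure D4:**
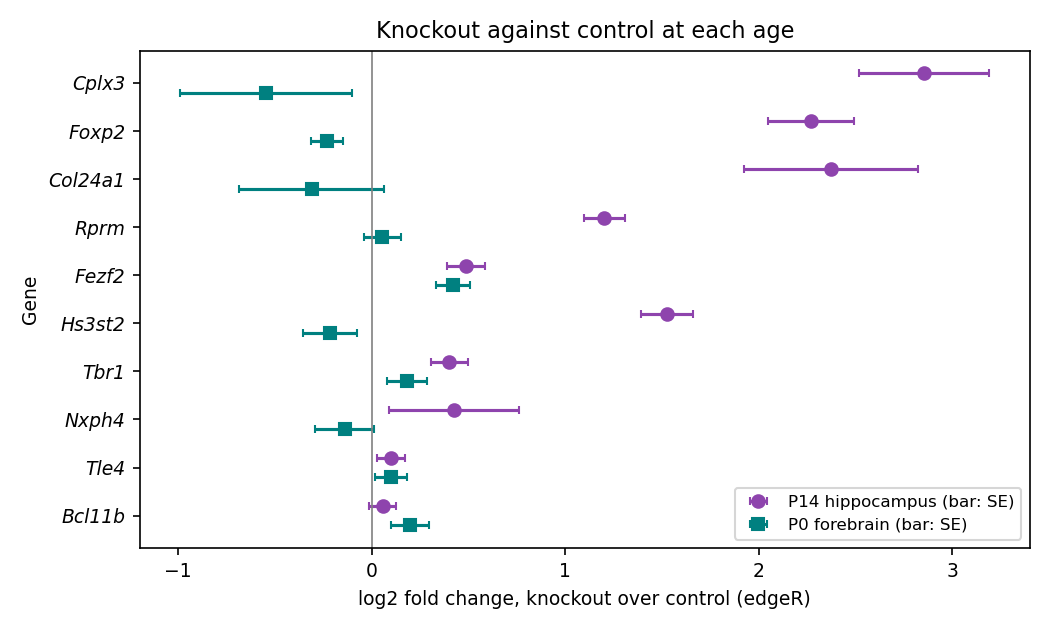
Log2 fold change of each of the 10 genes, knockout over control, with circles for the P14 hippocampus, squares for the P0 forebrain and bars of 1 SE. The P14 points run from 0.06 for Bcl11b to 2.85 for Cplx3, the P0 points from -0.55 to 0.42, and the pairs lie close together for Fezf2, Tle4 and Bcl11b.

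Levels of the genes were compared per length, as TPM, CPM divided by the summed exon length and rescaled to a common total. In the P0 wild-type forebrain the order was Rprm (287 ± 3.74 TPM, SD, n = 3), Bcl11b (110 ± 16), Tbr1 (79.7 ± 11.2), Tle4 (77.4 ± 0.791), Fezf2 (60.0 ± 5.90), Nxph4 (27.0 ± 2.83), Hs3st2 (24.7 ± 2.82), Foxp2 (23.3 ± 0.833), Cplx3 (2.10 ± 0.886) and Col24a1 (0.612 ± 0.0114). Tbr1 and Tle4 overlapped in this order, as did Nxph4 with Hs3st2 and Hs3st2 with Foxp2.

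In the P14 control hippocampus Bcl11b led (71.2 ± 5.65 TPM), followed by Rprm (44.5 ± 4.12), Tle4 (38.1 ± 1.84), Fezf2 (33.9 ± 1.95), Tbr1 (25.3 ± 2.42), Hs3st2 (7.28 ± 0.879), Nxph4 (3.87 ± 0.973), Cplx3 (2.41 ± 1.17), Col24a1 (0.413 ± 0.213) and Foxp2 (0.341 ± 0.0809). Tle4 and Fezf2 overlapped, as did Nxph4 with Cplx3 and Col24a1 with Foxp2. In the P14 knockouts Rprm was first at 101 ± 7.72 TPM, ahead of Bcl11b at 72.7 ± 1.20 TPM. There Fezf2 (46.8 ± 5.20) lay above Tle4 (40.1 ± 0.521), and Cplx3 (17.3 ± 3.86) overlapped with Hs3st2 (20.6 ± 1.76).

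Of the 10 genes 9 had a higher mean TPM in the P0 control forebrain than in the P14 control hippocampus, Cplx3 being the exception. The P0 and P14 controls overlapped for Cplx3 (1.43 to 3.11 and 1.18 to 3.50 TPM) and Col24a1 (0.600 to 0.622 and 0.276 to 0.658 TPM). The largest gap was that of Foxp2, with 68.2 times more TPM in the P0 forebrain. Its level in the P14 knockout hippocampus, 1.63 ± 0.193 TPM, was still far below that of the P0 forebrain. For Cplx3 and Col24a1 every P14 knockout exceeded every P0 library of either genotype. The lowest P14 knockout value was 13.9 TPM for Cplx3, against a highest P0 value of 3.11 TPM, and 0.933 TPM for Col24a1, against 0.658 TPM.

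Genes that share markers or families with the 10 were read from 10 lists with 62 further genes, of which 58 were tested at P14. In the P14 knockouts 10 of them were called higher and 2 lower, against backgrounds of 1.21% and 0.773% of all genes tested, and their median log2 fold change was 0.11. The lists were written with earlier results of these data known.

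The layer 6 corticothalamic list, without the members, had 4 of 9 genes called higher at P14 and none lower. Ntsr1, the neurotensin receptor gene whose Cre line is used to label these neurons, was at 11.6, 11.8 and 14.2 CPM in the knockouts and at 7.87, 7.15 and 7.36 CPM in the controls (log2 fold change 0.75, edgeR quasi-likelihood adjusted p 0.00918). Grik3, a kainate receptor subunit, was at 89.4, 93.5 and 88.5 CPM in the knockouts and at 34.6, 42.4 and 54.7 CPM in the controls (1.04, adjusted p 0.00586). Sla (1.05, adjusted p 0.00962) and Syt6, a synaptotagmin (0.68, adjusted p 0.0157), rose as well. Knockouts and controls did not overlap for any of the 4. Crym (0.20) and Hs3st4 (0.15), the most abundant of those not called, had adjusted p of 0.226 and 0.429.

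The subplate and layer 6b list had 2 of 9 genes called higher and none lower, with 5 positive and 4 negative log2 fold changes. In this list 5 genes had an unadjusted p under 0.05 in edgeR, of which 2 were higher and the rest lower. Its summed level did not separate the groups, at 224, 238 and 240 CPM in the P14 knockouts and 247, 239 and 221 CPM in the controls. Ccn2, the gene of connective tissue growth factor and a marker of layer 6b, was at 6.32, 11.2 and 10.9 CPM in the P14 knockouts and at 3.46, 3.92 and 2.67 CPM in the controls (log2 fold change 1.50, adjusted p 0.00427). Nxph3, a relative of Nxph4 found in the subplate, was at 19.1, 16.1 and 19.7 CPM in the knockouts and at 8.40, 7.57 and 4.35 CPM in the controls (1.43, adjusted p 0.00413). Nr4a2 (0.10, adjusted p 0.642), a factor that also marks the claustrum, and Kcnab1 (-0.26, adjusted p 0.121) were not called. Among the subplate markers named here the P14 groups were thus apart for Cplx3, Ccn2 and Nxph3 and overlapped for Nxph4 and Nr4a2. Kcnab1 was apart in the other direction, at 85.0, 83.9 and 81.3 CPM in the knockouts and 111, 98.2 and 91.0 CPM in the controls.

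Among layer 5 subcerebral genes, Ldb2 rose (0.43, adjusted p 0.0176) and Bhlhe22 fell (-0.48, adjusted p 0.00613), out of 11. Of 11 regulators of projection neuron identity, 1 rose and 1 fell. Sox5, a regulator of deep-layer neuron identity, had 0.36 (adjusted p 0.047), and Nfib, a factor of late neuronal and glial differentiation, had -0.46 (adjusted p 0.005). None of the 4 subiculum genes tested was called by edgeR or DESeq2, and 0 had an unadjusted p under 0.05. Their log2 fold changes were positive for 3 and negative for 1, from -0.06 to 0.63 (median 0.33). Of 2 complexins, Cplx1 (-0.13) and Cplx2 (0.13), 0 were called by either tool and 0 had an unadjusted p under 0.05. Of 5 heparan sulfotransferase relatives of Hs3st2, 0 were called by either tool and 1 had an unadjusted p under 0.05. Of the relatives of Tle4, Tle3 rose (0.60, adjusted p 0.000733), and of those of Foxp2, Foxp1 rose (0.38, adjusted p 0.0161).

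Of these 12 calls, Ccn2, Nxph3, Grik3 and Tle3 held in each of 6 fits that left out 1 library. Without knockout replicate 1, Nfib (adjusted p 0.055), Ldb2, Sox5, Syt6 and Foxp1 (0.0942) were lost. Without knockout replicate 2, Ldb2 and Sox5 were lost, and without knockout replicate 3, Ntsr1 (0.0563), Ldb2, Sox5, Syt6 and Foxp1. Without control replicate 1, Sla (0.0597), Ldb2, Sox5, Syt6 and Foxp1 were lost. Without control replicate 2, Bhlhe22 (0.0512), Ntsr1 (0.0722), Sla (0.0745), Sox5, Syt6 and Foxp1 were lost. In these fits the adjusted p lay between 0.0514 and 0.206 for Ldb2, Sox5, Syt6 and Foxp1, and every sign was kept.

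**Figure D5:**
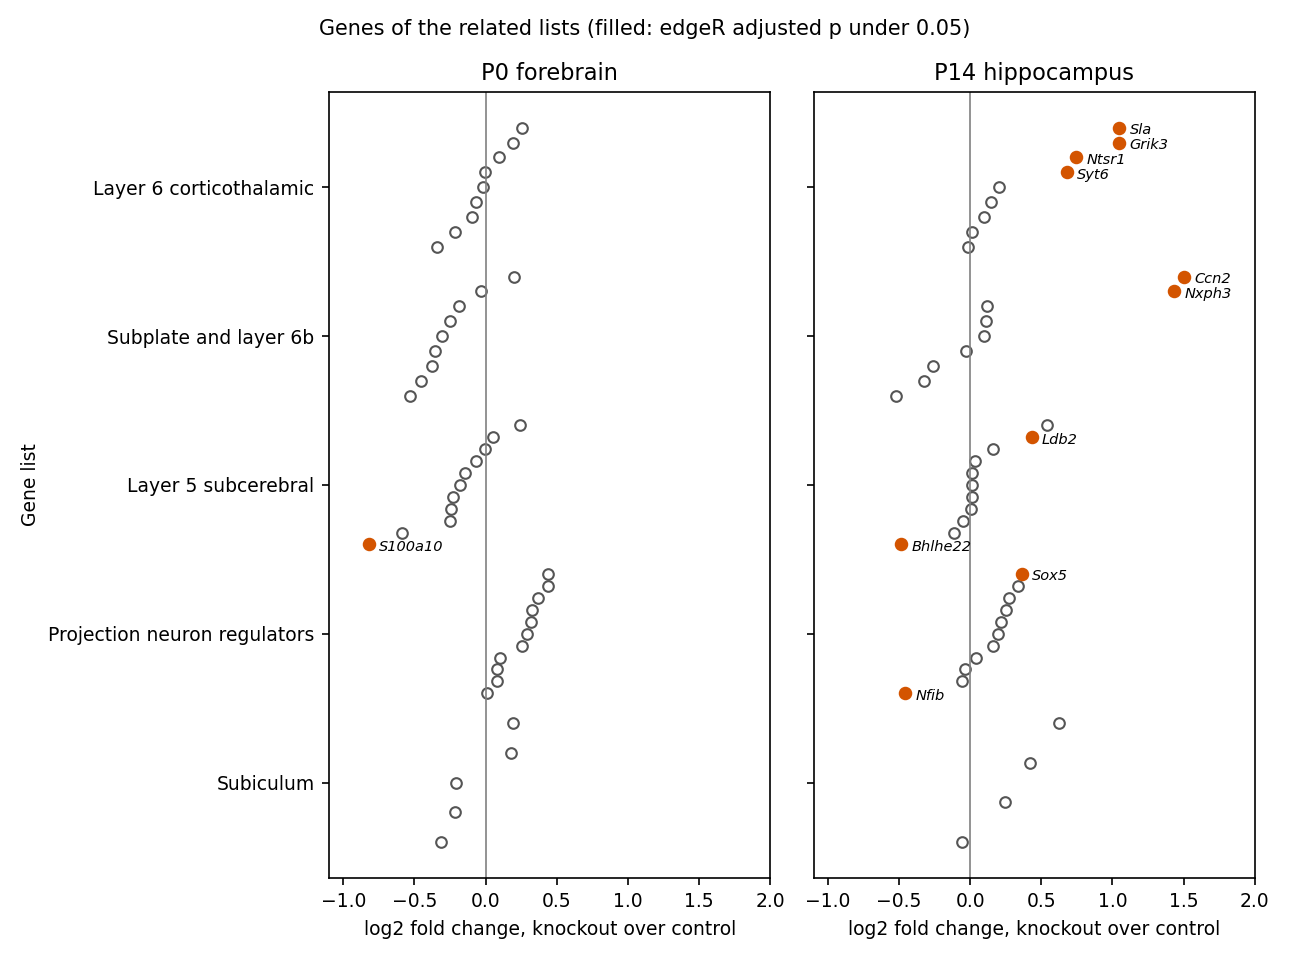
Log2 fold changes of the genes in 5 related lists at P0 and P14, knockout over control, 1 point per gene, filled where the edgeR adjusted p was under 0.05. At P14 the filled points run from -0.48 for Bhlhe22 to 1.50 for Ccn2, and at P0 S100a10 at -0.82 is the one filled point.

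At P0 the same lists held 1 called gene, S100a10 of the layer 5 list, which fell (10.8, 9.85 and 11.2 CPM in the knockouts against 21.4, 16.2 and 19.0 CPM in the wild types, log2 fold change -0.82, adjusted p 0.0203). Its call was lost without knockout replicate 1 (adjusted p 0.101), knockout replicate 2 (0.105), wild-type replicate 1 (0.168) or wild-type replicate 2 (0.0711). These are the fits, with few calls in all, in which the Fezf2 call was lost too. All 11 regulators of projection neuron identity had positive P0 values, with a median of 0.29. None was called by edgeR, 7 had an unadjusted p under 0.05, and DESeq2 called 3. Of the 11 layer 5 genes 9 had negative and 2 positive P0 values (median -0.18). In edgeR 6 of them had an unadjusted p under 0.05, 1 of these higher, and DESeq2 called 2. Of the 9 subplate genes 8 had negative P0 values (median -0.31). None was called by edgeR or DESeq2, and 3 had an unadjusted p under 0.05.

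The difference of the genotype effect between the ages was tested for the list genes, where 1.79% of all 18189 genes tested were called. Of the subplate and corticothalamic genes that rose at P14, Ccn2 (1.85), Nxph3 (1.22), Grik3 (0.83), Syt6 (0.67) and Ntsr1 (0.64) had a higher log2 fold change at P14 than at P0, with edgeR quasi-likelihood adjusted p of 0.0212, 0.00813, 0.0137, 0.0179 and 0.0317. Sla, the other gene of these lists that rose, had 0.77 and did not pass (adjusted p 0.114). These 6 are singled out by their P14 call, and the interaction contains that contrast, so it is no independent support for them.

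The genes most like the mean of the 10 were found by correlation over the 12 libraries, each centred within its age, among 13218 genes. Among the first 6 were Ntsr1 (Pearson r 0.97), Adgrl2 (0.97), Meis2 (0.96), Nxph3 (0.94) and Tmem132d (0.94). The libraries share the P14 genotype difference, which dominates these coefficients, and no test was made. Adgrl2, an adhesion receptor gene, averaged 85.3 CPM in the P14 knockouts and 49.8 CPM in the controls, and Meis2, a homeobox factor of striatal and other neurons, 60.2 and 30.6 CPM. For Cplx3 alone the nearest were Tmem91 (0.93), Ntm (0.92) and Rasgef1c (0.92), and for Foxp2 alone Rasgef1c (0.95), Tmem132d (0.95) and Tmem91 (0.94). Rasgef1c and Tmem91 thus stood near both, and averaged 6.28 and 7.85 CPM in the P14 knockouts against 3.20 and 4.08 CPM in the controls.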

How the data were processed

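The files the authors deposited hold, for each library, whole-number read counts of Ensembl genes that were not normalized. STAR 2.7.5a, edgeR 3.12 and the builds mm10 and GRCm38 are named in the submitters' processing notes, and annotation release 102 per the file names. One strand took 49.88% to 49.98% of the stranded counts, so the unstranded column was used. Of 55487 identifiers, 55227 had coordinates and exon lengths in GENCODE vM21. Annotated genes overlapping Foxp2, Col24a1 and Hs3st2 reached at most 0.426 CPM.

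The 6 libraries of an age were fitted together (edgeR 4.0.16, R 4.3.3, filterByExpr, TMM, robust quasi-likelihood fit, Benjamini-Hochberg over all genes tested, threshold 0.05). All 12 libraries gave the interaction. All adjusted p-values in the text are from edgeR's quasi-likelihood test. Log2 CPM used a prior count of 2. Tested on simulated data, the fit recovered 78.5% of 200 genes changed by 2-fold at P0 (16176 genes) and 75.5% at P14 (17208 genes), and 7.10% and 10.7% of its calls were of unchanged genes. Alternatives were RLE factors, no filter, DESeq2 1.42.0, 1 fit on all libraries, a term for library number series at P0, and leaving out each library.

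The members and lists were chosen with earlier results of these data known. All 10 members are named, with every gene of the related lists called at P0 or P14, up to 2 abundant uncalled genes per related list, and the 6 genes most correlated with the members' mean (3 each for Cplx3 and Foxp2). Marker lists are given by counts and sums with examples. A few list genes were taken off the lists and are not reported here, so 5 of those 6 are given. The P0 libraries fall into 2 series of library numbers, with knockout and wild-type replicate 3 in the second.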

Additional observations from a re-analysis of the deposited data

Results flagged for a closer look

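The genotype effect was called different between the P0 forebrain and the P14 hippocampus for 10 of 59 related-list genes tested. The test was edgeR's quasi-likelihood interaction over all 12 libraries, which called 1.79% of all genes tested. The log2 fold change at P14 exceeded that at P0 for Ccn2 (1.85, adjusted p 0.0212), Nxph3 (1.22, 0.00813), Grik3 (0.83, 0.0137), Syt6 (0.67, 0.0179), Ntsr1 (0.64, 0.0317) and Foxp1 (0.56, 0.0111), all called higher at P14. The same held for S100a10 (0.82, adjusted p 0.0404), called lower at P0. The P14 value was the smaller one for Nfib (-0.80, adjusted p 0.00176), Bhlhe22 (-0.74, 0.00855) and Neurod2 (-0.52, 0.0433). Nfib and Bhlhe22 were lower in the P14 knockouts, and Neurod2 was called at neither age. The interaction contains the P0 and P14 contrasts, so it is no independent support for genes called at either age. The lists were written with earlier results known.

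Among the 10 deep-layer and subplate genes, Foxp2 was lower in every P0 knockout than in any wild type and higher in every P14 knockout than in any control, a difference of 2.49 on the log2 scale. It is listed because the samples moved in opposite directions at the 2 ages, and the difference was not tested, since the P14 contrast chose the gene. The P0 fall of Foxp2 did not pass (log2 fold change -0.23, edgeR quasi-likelihood adjusted p 0.177). At P0, 21.6% of all genes tested had groups that did not overlap.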

How the results depend on the processing

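The P14 signs of the 10 genes were kept under each alternative run. At P0, Rprm (0.06 with all libraries) lay between -0.071, without knockout replicate 3, and 0.14 with 1 library left out. Called genes numbered 147 at P0, and 625 without a filter, 374 with DESeq2, 284 in 1 fit on 12 libraries, 465 with the library series term and 1 to 775 with 1 library left out. At P14 there were 342, and 814 without a filter, 534 with DESeq2 and 104 to 1808 with 1 library left out (1808 without control replicate 3). The interaction had 326, and 646 without a filter, 531 with DESeq2 and 125 to 905 with 1 library left out. Called members at P0 numbered 1, and 0 to 2 with 1 library left out. Called list genes at P0 were 0 higher and 1 lower, with 7 and 4 without a filter, 4 and 2 with DESeq2, 3 and 3 in 1 fit on 12 libraries, 3 and 2 with the series term, and 0 to 6 and 0 to 3 with 1 library left out. At P14 they were 10 and 2, and with 1 library left out 5 to 15 and 1 to 4. The cause of these changes was not tested. Fewer libraries enter the leave-one-out fits, in which the counts of called genes both fell and rose. No paired analysis was possible because replicate numbers here only follow accession order, and the labels tie no knockout mouse to a control mouse. The P0 values of Cplx3 and Col24a1 rest on at most 29 and 22 counts per library.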
